A study of Mus musculus with 8 samples.

Results

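The 10 genes described here mark the cells that hold the glomerular capillary tuft together and the smooth muscle of its arterioles. They were taken by symbol from a fixed list, and all 10 were measured, out of 22180 genes with a symbol of their own on the arrays. Where a gene had several probe sets, that with the highest average signal was used. Of the 10, Itga8, Pdgfrb and Sfrp2 were taken as mesangial genes and Des, Acta2, Tagln, Myh11 and Cnn1 as contractile genes. Pdgfra and Rgs5 were kept apart from both. Mesangial cells lie between the capillary loops, hold them against the filtration pressure, and depend during development on platelet-derived growth factor B from the endothelium, which acts on the receptor encoded by Pdgfrb. Smooth muscle cells of the arterioles owe their contraction to actin, myosin and the proteins that bind them, many of whose genes are driven by the transcription factor SRF.

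Total RNA came from glomeruli isolated from kidneys of mice aged 13 weeks, and each sample was hybridised to 1 Affymetrix array after biotin labelling. There were 3 Tln1 VPA arrays (genotype Tln1 Pod-rtTA TetO-Cre, doxycycline and then valproic acid), 3 Tln1 vehicle arrays (the same genotype, doxycycline and then vehicle) and 2 control arrays (genotype given as control, doxycycline). Doxycycline was given to all groups for 3 weeks from an age of 8 weeks, and the 2 weeks of vehicle or valproic acid followed it. By its name, the line makes Cre recombinase under doxycycline in podocytes, the epithelial cells of the filter. Talin 1, encoded by Tln1, ties integrins to actin. Valproic acid inhibits histone deacetylases. The labels do not say that the control mice received vehicle, so genotype and vehicle cannot be told apart in comparisons with control. Nothing in the labels says whether each array is its own animal, and p values therefore reflect array-to-array spread, part of which may be technical. The isolates hold many cell types, so more cells of a type and more RNA per cell cannot be told apart.

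Clustering split the 8 arrays into 2 sets, each with arrays of every group. The first set holds Tln1 VPA 1 and 2, Tln1 vehicle 1 and 2, and control 1, and the second holds Tln1 VPA 3, Tln1 vehicle 3 and control 2. Array pairs of the same set correlated at 0.990 to 0.995, and pairs from different sets at 0.966 to 0.979. Arrays of the same set shared values identical to 5 decimals in 1989 to 2600 probe sets per pair (first set) and in 3759 to 4340 (second set), against 0 to 2 per pair across sets. RMA's summary step, median polish, can give such identical values to arrays summarised together. Which arrays were processed together is not given in the sources used here. Differences within each set are therefore given beside those over all arrays, for the related genes and other cell types mainly for Tln1 vehicle against control. In comparisons with control the groups are spread unevenly over the sets, so differences over all arrays can carry part of a difference between sets. Differences within the second set rest on single arrays. Within the first set, comparisons with control rest on a lone control array, and Tln1 VPA against Tln1 vehicle on 2 arrays each. Values of Eif2s3y, a gene of the Y chromosome, were 5.43, 6.51 and 2.69 in Tln1 VPA, 6.46, 7.71 and 2.91 in Tln1 vehicle, and 3.80 and 2.83 in control arrays. It was thus higher in the Tln1 groups than in control within the first set. Y chromosome signal and genotype therefore cannot be told apart in comparisons with control within that set.

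All values below are log2 expression values, and all differences are differences of log2 values, so that 1 unit is a doubling. Tests are limma's, in 1 fit over all 8 arrays, with Benjamini-Hochberg adjustment over all 22180 genes. Of all genes, 0% had an adjusted p below 0.05 in each of the 3 comparisons, and every one of the 10 genes had an adjusted p of 1.00 in each. What follows is therefore a description of values. Members are read against the share of all genes that did as much. The genes and lists were chosen with earlier results of these data known, so these shares are no test of them.

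In the Tln1 vehicle glomeruli the 3 mesangial genes stood above control, and their Tln1 VPA means lay between those of the other groups. Itga8 was 2.24-fold higher in Tln1 vehicle than in control arrays, Sfrp2 1.90-fold and Pdgfrb 1.67-fold. These folds are from the fit without array set, where the differences were 1.17, 0.92 and 0.74. With array set as a block they were 1.09, 0.81 and 0.72. Itga8 showed this difference at nearly the same size in both array sets. Itga8 and Sfrp2 were lower in Tln1 VPA than in Tln1 vehicle within both sets, and Pdgfrb was level between them in the second.

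Itga8 encodes the integrin alpha 8 chain, which pairs with integrin beta 1 on mesangial cells and binds nephronectin and fibronectin. Its level was 6.84, 6.95 and 6.33 in Tln1 VPA arrays 1 to 3, 7.96, 7.41 and 7.29 in Tln1 vehicle arrays 1 to 3, and 6.55 and 6.22 in control arrays 1 and 2. All 3 Tln1 vehicle arrays lay above all other arrays, and Tln1 VPA overlapped control. Tln1 vehicle averaged 7.55 ± 0.36 (SD, n = 3) and control 6.38 ± 0.23 (n = 2), a difference of 1.17 (SE 0.26, 95% interval 0.56 to 1.78). Within the sets it was 1.13 (first) and 1.07 (second), and limma gave an unadjusted p of 0.00243, with an adjusted p of 1.00 (0.352 when array set was a block in the fit). Tln1 VPA averaged 6.71 ± 0.33 (n = 3), which was 0.84 below Tln1 vehicle (SE 0.23, difference -0.84, interval -1.39 to -0.30). Within the sets this difference was -0.79 and -0.96.

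Pdgfrb encodes the beta receptor for platelet-derived growth factor, found on mesangial cells, pericytes and smooth muscle. It stood at 7.01, 7.15 and 7.19 in Tln1 VPA, at 7.82, 7.41 and 7.20 in Tln1 vehicle, and at 6.81 and 6.66 in control arrays. Both Tln1 groups lay above control without overlap. The third arrays of the Tln1 groups, both of the second set, were nearly level with each other. Tln1 vehicle exceeded control by 0.74 (SE 0.19, interval 0.30 to 1.18), with 0.80 and 0.54 in the sets. Tln1 VPA differed from Tln1 vehicle by -0.36 (SE 0.17, interval -0.75 to 0.03), with -0.54 and -0.01 in the sets, and from control by 0.38 (SE 0.19, interval -0.06 to 0.82).

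Sfrp2 encodes a secreted protein that binds Wnt ligands. Its levels were 7.27, 7.59 and 6.91 in Tln1 VPA, 8.55, 8.37 and 7.32 in Tln1 vehicle, and 7.34 and 6.97 in control arrays. The high values were those of Tln1 vehicle 1 and 2, while Tln1 vehicle 3 lay within the range of the other groups. Tln1 vehicle exceeded control by 0.92 (SE 0.37, interval 0.06 to 1.79), with 1.12 and 0.35 in the sets. Tln1 VPA differed from Tln1 vehicle by -0.82 (SE 0.33, interval -1.60 to -0.05), with -1.03 and -0.42 in the sets, and from control by 0.10 (SE 0.37). A second Sfrp2 probe set with low values averaged 4.20 in Tln1 VPA, 4.60 in Tln1 vehicle and 4.44 in control arrays.

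**Figure D1:**
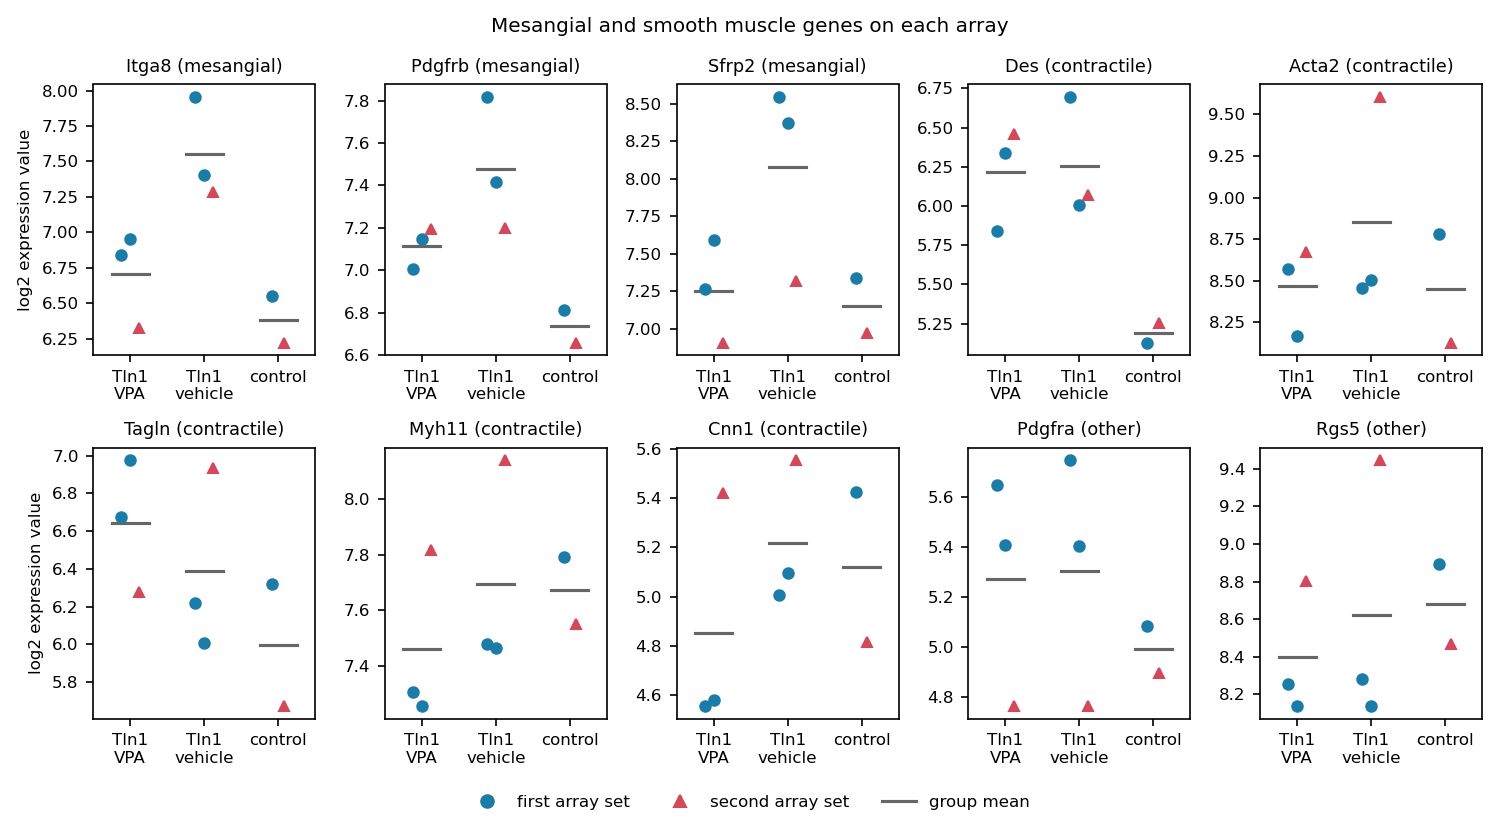
Log2 expression value (vertical axis) of each of the 10 genes on each array, by group, with circles for the first array set, triangles for the second and a line for the group mean. The 3 Tln1 vehicle arrays of Itga8 sit between 7.29 and 7.96, above the 5 other arrays, while in Acta2, Myh11 and Rgs5 the highest point is the second-set array Tln1 vehicle 3.

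The 5 contractile genes did not differ together. Desmin was about as high in both Tln1 groups, and above control in every one of their arrays. The 4 others showed no steady difference between Tln1 vehicle and control: they were lower within the first set and higher within the second. In Tln1 VPA against Tln1 vehicle, Acta2 (-0.11 and -0.93), Myh11 (-0.19 and -0.32) and Cnn1 (-0.48 and -0.13) were lower within both sets. Tagln changed sign there (0.71 and -0.66), but was higher within both in Tln1 VPA against control (0.51 and 0.61). Acta2, Myh11 and Cnn1 changed sign in that last comparison. Over all arrays, the intervals of these differences spanned both signs.

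Des encodes desmin, the intermediate filament of muscle, which mesangial cells and injured podocytes also make. Its level was 5.84, 6.34 and 6.46 in Tln1 VPA, 6.70, 6.00 and 6.07 in Tln1 vehicle, and 5.13 and 5.26 in control arrays. The Tln1 groups overlapped each other and neither reached down to control. Des was 1.06 higher in Tln1 vehicle than in control (SE 0.26, interval 0.46 to 1.67), with 1.22 and 0.81 in the sets. In Tln1 VPA it was 1.02 higher than in control (SE 0.26, interval 0.42 to 1.62), with 0.97 and 1.20 in the sets. Both comparisons use the same 2 control arrays, and limma's unadjusted p was 0.00374 and 0.00464. Between Tln1 VPA and Tln1 vehicle the difference was -0.04 (SE 0.23, interval -0.58 to 0.50). A probe set assigned to both Des and Gm15179, not used here, had low values. It averaged 3.66 in Tln1 VPA, 3.69 in Tln1 vehicle and 3.69 in control arrays.

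Acta2 encodes the actin of smooth muscle. Its levels were 8.57, 8.17 and 8.67 in Tln1 VPA, 8.45, 8.51 and 9.61 in Tln1 vehicle, and 8.78 and 8.13 in control arrays. Tln1 vehicle 3 alone stood high, and the other 7 arrays ran from 8.13 to 8.78 with no order by group. The difference between Tln1 vehicle and control was 0.40 (SE 0.38, interval -0.47 to 1.28), being -0.30 within the first set but 1.48 within the second. Without Tln1 vehicle 3 it was 0.03.

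The promoter window of Acta2 is shown because this gene is a textbook SRF target, with that of Itga8, the mesangial gene with the widest gap between groups, for comparison. SRF binds the CArG box, a run of A or T bases between a pair of C and a pair of G. Both windows are the 250 bases before the gene's start in RefSeq (GRCm38.p6), read 5′ to 3′ along the gene, at chr19:34255374-34255623 (minus strand) for Acta2 and chr2:12301945-12302194 (minus strand) for Itga8. Capitals mark CArG boxes with up to 1 base other than A or T in their centre.
Acta2: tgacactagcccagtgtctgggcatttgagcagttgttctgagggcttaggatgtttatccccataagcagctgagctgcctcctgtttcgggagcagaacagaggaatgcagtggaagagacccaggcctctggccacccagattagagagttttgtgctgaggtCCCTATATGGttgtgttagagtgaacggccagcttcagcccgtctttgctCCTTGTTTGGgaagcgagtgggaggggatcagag
Itga8: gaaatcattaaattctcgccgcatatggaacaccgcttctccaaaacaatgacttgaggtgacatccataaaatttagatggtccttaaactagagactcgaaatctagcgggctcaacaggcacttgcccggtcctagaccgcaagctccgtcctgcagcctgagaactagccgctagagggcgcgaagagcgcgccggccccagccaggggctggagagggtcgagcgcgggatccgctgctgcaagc
The Acta2 window holds 2 such boxes, starting 84 and 34 bases before the gene's start, each with 1 base other than A or T. The box reads the same class of letters on both strands, so the search covers both, and these 2 boxes do not overlap. Of 32817 promoter windows of this length, 8.6% hold a box at this tolerance and 1.47% hold one with none but A and T in its centre. RefSeq windows matched 7 of the 10 genes, and among them only that of Acta2 held a box. Those of Itga8, Sfrp2, Des, Cnn1, Pdgfra and Rgs5 held none in these 250 bases, and Pdgfrb, Tagln and Myh11 were not matched. The match describes these letters and is no measure of SRF binding.

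Tagln encodes transgelin, an actin-binding protein of smooth muscle. It stood at 6.67, 6.98 and 6.28 in Tln1 VPA, at 6.22, 6.01 and 6.93 in Tln1 vehicle, and at 6.32 and 5.67 in control arrays. Of the contractile genes it alone averaged higher in Tln1 VPA than in Tln1 vehicle, by 0.26 (SE 0.30, interval -0.44 to 0.95). This was 0.71 in the first set, where both Tln1 VPA arrays lay above both Tln1 vehicle arrays, and -0.66 in the other. Tln1 VPA exceeded control for Tagln by 0.65 (SE 0.33, interval -0.13 to 1.43), with 0.51 and 0.61 in the sets.

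Myh11 encodes the smooth muscle myosin heavy chain. Its values were 7.31, 7.25 and 7.82 in Tln1 VPA, 7.48, 7.46 and 8.14 in Tln1 vehicle, and 7.79 and 7.55 in control arrays. Second-set arrays were the highest in both Tln1 groups. Tln1 vehicle and control differed by 0.02 (SE 0.26, interval -0.58 to 0.63), with -0.32 and 0.59 in the sets, and Tln1 VPA and Tln1 vehicle by -0.24 (SE 0.23, interval -0.78 to 0.31).

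Cnn1 encodes calponin 1, which binds actin and restrains myosin in smooth muscle. Its values were 4.55, 4.58 and 5.42 in Tln1 VPA, 5.01, 5.09 and 5.55 in Tln1 vehicle, and 5.42 and 4.81 in control arrays. Its mean of 5.06 over all arrays lay just above the median gene mean of 4.92. Tln1 vehicle and control differed by 0.10 (SE 0.32, interval -0.65 to 0.84), with -0.37 and 0.74 in the sets. Tln1 VPA and Tln1 vehicle differed by -0.37 (SE 0.29, interval -1.03 to 0.30).

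Pdgfra, which encodes the alpha receptor for platelet-derived growth factor and marks fibroblasts and some mesangial cells, followed the array sets. It stood at 5.65, 5.41 and 4.76 in Tln1 VPA, at 5.75, 5.40 and 4.76 in Tln1 vehicle, and at 5.09 and 4.90 in control arrays. Within the first set all 4 Tln1 arrays lay above control 1, by 0.44 in Tln1 VPA and 0.49 in Tln1 vehicle, while in the second set both Tln1 arrays lay 0.13 below control 2 (differences of -0.13). Rgs5, a regulator of G protein signalling in pericytes and arteriolar smooth muscle, stood at 8.26, 8.14 and 8.80 in Tln1 VPA, at 8.28, 8.14 and 9.45 in Tln1 vehicle, and at 8.89 and 8.47 in control arrays. Its highest value, like that of Acta2, was in Tln1 vehicle 3. Rgs5 in Tln1 vehicle differed from control by -0.69 and 0.98 in the sets, so its difference over all arrays of -0.06 (SE 0.40) stands for neither. A second Rgs5 probe set averaged 4.61 in Tln1 VPA, 4.83 in Tln1 vehicle and 4.81 in control arrays.

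**Figure D2:**
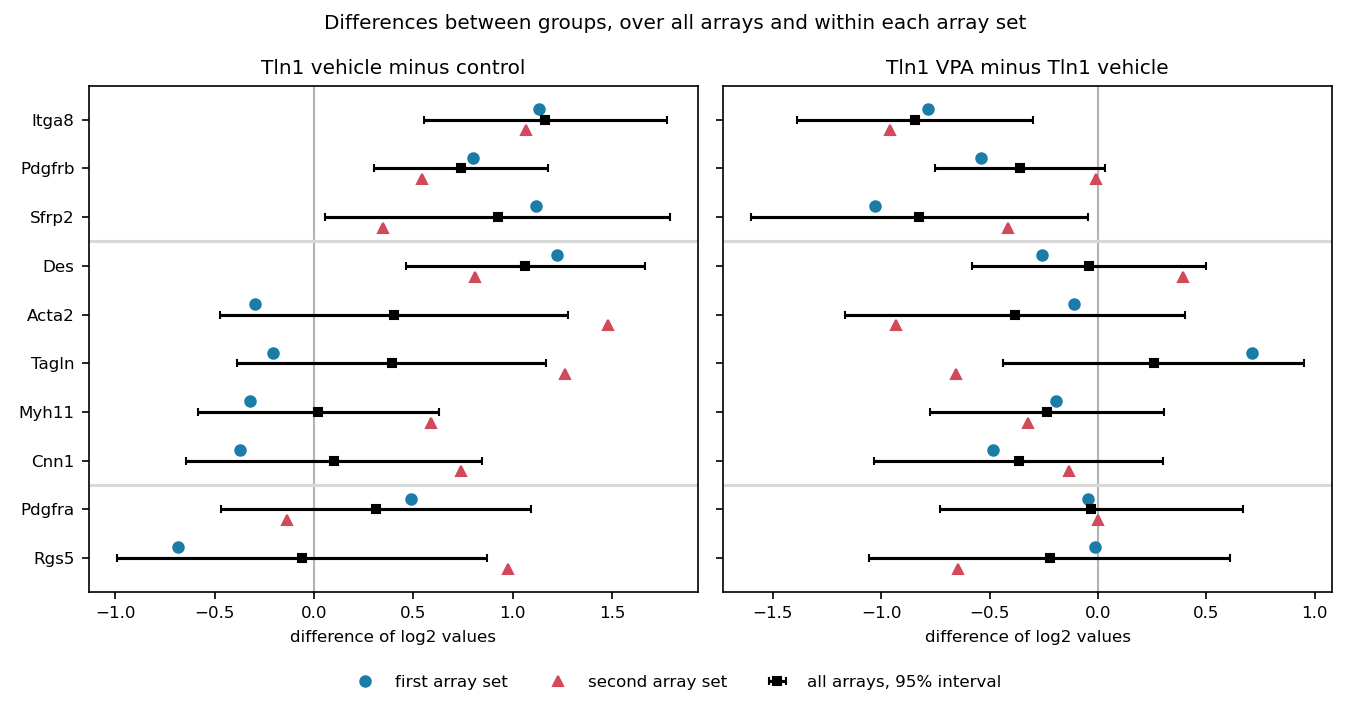
Difference of log2 values (horizontal axis) for each gene, Tln1 vehicle minus control on the left and Tln1 VPA minus Tln1 vehicle on the right, with squares and 95% intervals over all arrays, circles for the first array set and triangles for the second. Itga8, Pdgfrb, Sfrp2 and Des lie above 0 on the left in both sets, whereas Acta2, Tagln, Myh11, Cnn1 and Rgs5 lie below 0 in the first set and above it in the second.

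Counted over the 10 genes, 9 had a difference above 0 in Tln1 vehicle against control, as had 12339 of all 22180. Their median was 0.40 beside 0.02 over all genes. Because the 10 were chosen with earlier results of these data known, the counts describe them and test nothing. The groups did not overlap for 3 of the 10 (Itga8, Pdgfrb and Des), all higher, against 4.78% of all genes higher and 3.59% lower. An unadjusted limma p below 0.05 was reached by 4 of the 10, namely the 3 mesangial genes and Des, against 0.78% of all genes higher and 0.672% lower. In all, 173 genes were higher and 149 lower at that p, a split that became 146 and 231 with each array centred on its median.

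In Tln1 VPA against Tln1 vehicle, 9 of the 10 genes had a difference below 0, as had 10761 of all 22180. Their median was -0.30 beside 0.00 over all genes. Itga8 and Pdgfrb, both lower, had no overlap between these groups (for Pdgfrb the nearest arrays were 7.19 and 7.20), against 1.98% of all genes higher and 1.57% lower. Itga8 and Sfrp2 had an unadjusted limma p below 0.05, against 0.834% of all genes higher and 0.428% lower. This comparison and the one with control share the Tln1 vehicle arrays, so a high value there enters both with opposite sign.

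In Tln1 VPA against control, 7 of the 10 genes had a difference above 0, as had 12597 of all 22180. Their median was 0.19 beside 0.02 over all genes. Pdgfrb and Des did not overlap with control, both higher, against 5.57% of all genes higher and 3.98% lower. Des alone had an unadjusted limma p below 0.05, against 1.23% of all genes higher and 0.64% lower.

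Averaged per array, the 3 mesangial genes gave 7.04, 7.23 and 6.81 in Tln1 VPA, 8.11, 7.73 and 7.27 in Tln1 vehicle, and 6.90 and 6.62 in control arrays. All 3 Tln1 vehicle arrays exceeded every other array, the lowest of them by little. Their mean was 0.94 above control (1.02 and 0.65 in the sets), and Tln1 VPA lay below Tln1 vehicle by a difference of -0.68 (-0.78 and -0.46). The 5 contractile genes gave 6.59, 6.66 and 6.93 in Tln1 VPA, 6.77, 6.61 and 7.26 in Tln1 vehicle, and 6.69 and 6.28 in control arrays. Their difference between Tln1 vehicle and control was 0.40 over all arrays, with 0.00 and 0.98 in the sets. Without Des, these were 0.23, -0.30 and 1.02.

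Within an array, the mesangial mean minus the contractile mean was 0.45, 0.57 and -0.12 in Tln1 VPA, 1.34, 1.12 and 0.01 in Tln1 vehicle, and 0.21 and 0.33 in control arrays. In the first set this gap was widest in the 2 Tln1 vehicle arrays, 1.01 above control 1. In the second set it was narrower in Tln1 vehicle than in control (difference -0.32). The wider gap in Tln1 vehicle was thus seen in the first set and not in the second.

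**Figure D3:**
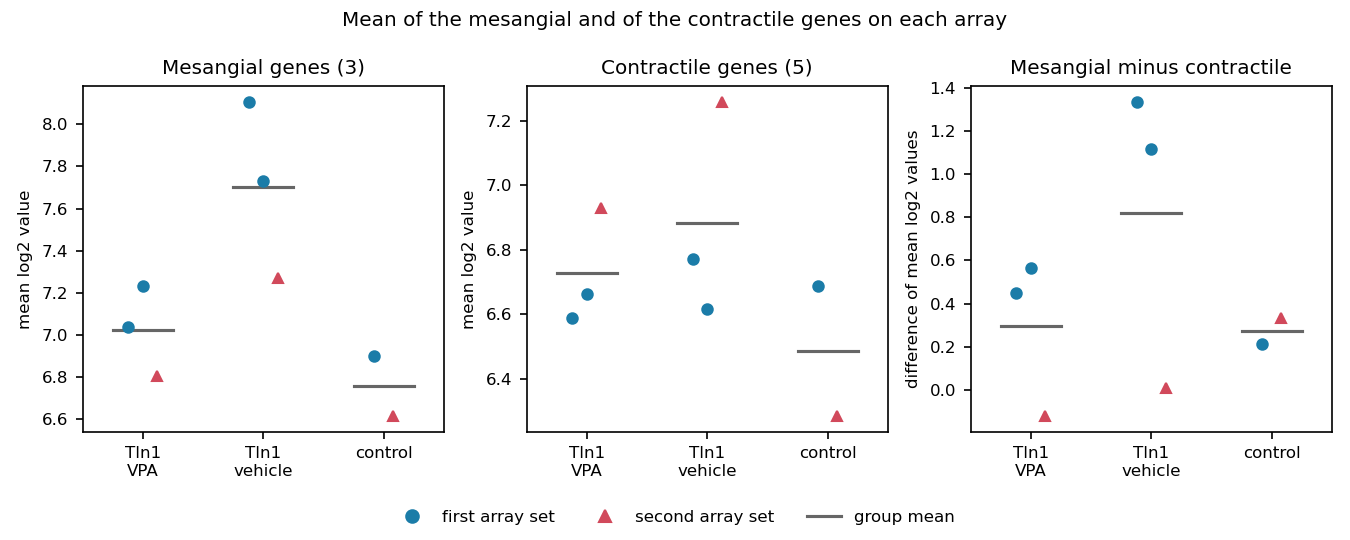
Mean log2 value per array of the 3 mesangial genes (left), of the 5 contractile genes (middle), and their difference (right), by group, with circles for the first array set, triangles for the second and lines for group means. The mesangial mean is highest in Tln1 vehicle in both sets, while the gap between the classes is 1.12 and 1.34 in the first-set Tln1 vehicle arrays and 0.01 in the second-set one.

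Markers of other cell types moved with some of these values. The mean of 8 endothelial markers was 8.84, 8.74 and 8.94 in Tln1 VPA, 9.08, 8.64 and 9.65 in Tln1 vehicle, and 9.33 and 8.62 in control arrays. Its highest value was in Tln1 vehicle 3 and its lowest in control 2, as for the contractile mean. Distal tubule and collecting duct markers (6 measured) were also highest in Tln1 vehicle 3, at 11.21. Their lowest value was 10.32, in Tln1 vehicle 2. Within the sets, Tln1 vehicle differed from control by -0.47 and 1.04 for endothelial and by -0.50 and 0.42 for distal markers. The part of endothelial, arteriolar or distal tubule content in the contractile values was not tested. The mean of the 6 measured of 8 podocyte markers ran from 7.09 to 8.56 in Tln1 VPA, from 7.63 to 8.87 in Tln1 vehicle, and was 7.13 and 9.21 in control arrays. Second-set arrays were the highest in each group. Within the sets, podocyte markers in Tln1 vehicle differed from control by 0.63 and -0.33, where the mesangial mean differed by 1.02 and 0.65. In Tln1 VPA they differed from Tln1 vehicle by -0.37 and -0.31, where the mesangial mean differed by -0.78 and -0.46. All 6 podocyte markers were lower over all arrays, beside 10761 of all 22180 genes. The part of podocyte content in the mesangial values was not tested. Proximal tubule markers (8 measured) averaged 10.91 to 11.63 in Tln1 VPA, 10.74 to 11.80 in Tln1 vehicle and 11.35 to 11.80 in control arrays. They were lowest on the second-set array of each group, and Tln1 vehicle differed from control by -0.02 and -0.61 in the sets. Markers of fibroblasts (7 measured) averaged 5.32 ± 0.16 in Tln1 VPA, 5.15 ± 0.15 in Tln1 vehicle and 5.14 ± 0.07 in control arrays, with -0.11 and 0.22 between Tln1 vehicle and control in the sets. Macrophage markers (8 measured) averaged 5.40 ± 0.52, 4.98 ± 0.37 and 5.10 ± 0.01 in the same order, with -0.34 and 0.31 for that difference. Between Tln1 VPA and Tln1 vehicle, macrophage markers differed by 0.35 and 0.56 in the sets, with all 8 higher, beside 11386 of all 22180 genes. Endothelial markers differed there by -0.07 and -0.72, with 7 of 8 lower, beside 10761 of all genes. Proximal tubule, distal and fibroblast markers differed there with opposite signs in the sets. With the mean of Y-linked genes as a covariate, the mesangial difference between Tln1 vehicle and control was 0.66 in place of 0.94, that of Itga8 0.92 in place of 1.17, and that of Sfrp2 0.42 in place of 0.92.

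**Figure D4:**
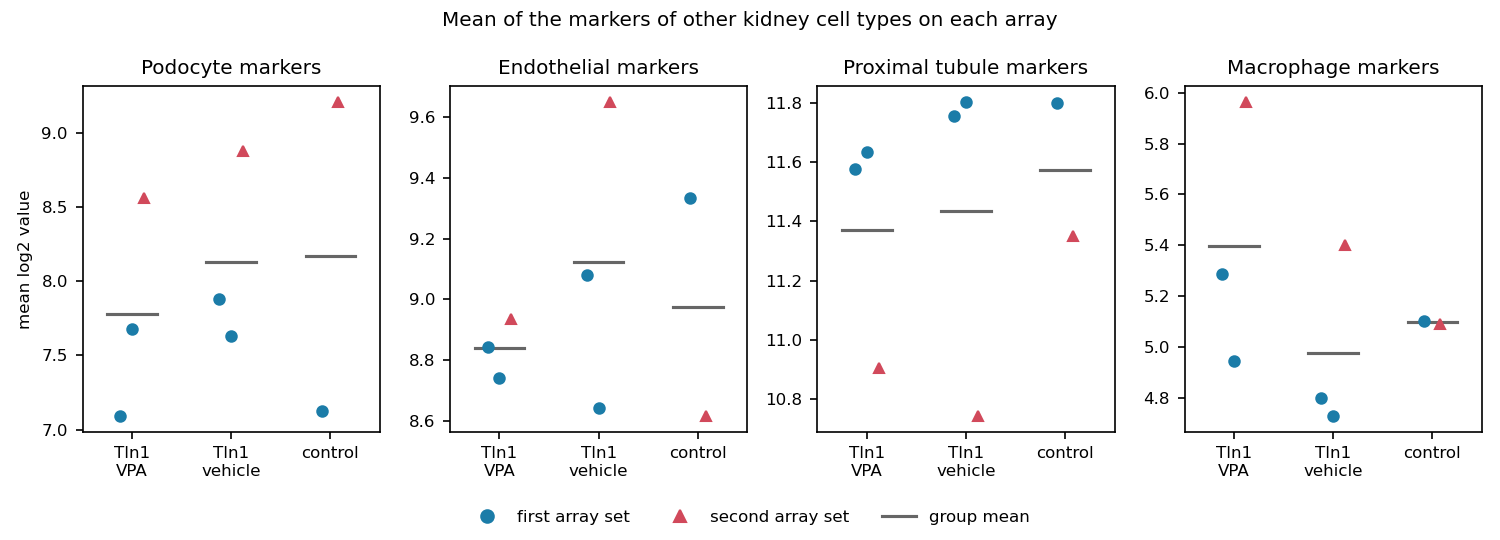
Mean log2 value per array of podocyte, endothelial, proximal tubule and macrophage markers, by group, with circles for the first array set, triangles for the second and lines for group means. Podocyte markers are highest on the second-set array of each group, proximal tubule markers lowest, and endothelial markers reach 9.65 on Tln1 vehicle 3.

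The partners of these genes were described from lists chosen by function, and 0 of their members passed the test over all genes. Of the 4 platelet-derived growth factor ligands, Pdgfb, the endothelial ligand of Pdgfrb, averaged 7.35 ± 0.23 in Tln1 VPA, 7.32 ± 0.13 in Tln1 vehicle and 7.14 ± 0.47 in control arrays. Pdgfd, another ligand of that receptor, averaged 5.86 ± 0.40, 6.42 ± 0.44 and 6.05 ± 0.24 in the same order. Pdgfa averaged 6.11 ± 0.36 in Tln1 VPA, 6.13 ± 0.33 in Tln1 vehicle and 5.74 ± 0.55 in control arrays, and Pdgfc 7.60 ± 0.21, 7.57 ± 0.20 and 7.57 ± 0.33. Within the sets, Tln1 vehicle differed from control by -0.11 and 0.42 for Pdgfb, by 0.28 and 0.71 for Pdgfd, by 0.19 and 0.39 for Pdgfa, and by -0.13 and 0.00 for Pdgfc. Groups overlapped for all 4 ligands in all 3 comparisons, as they did for most genes. Over all genes, 4.78% higher and 3.59% lower had no overlap in Tln1 vehicle against control. These shares were 1.98% and 1.57% in Tln1 VPA against Tln1 vehicle, and 5.57% and 3.98% in Tln1 VPA against control.

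Among 5 measured of 6 partners of integrin alpha 8, its beta chain Itgb1 averaged 9.65 ± 0.14 in Tln1 VPA, 9.75 ± 0.11 in Tln1 vehicle and 9.52 ± 0.14 in control arrays. Tln1 vehicle differed from control for Itgb1 by 0.30 and 0.19 in the sets, and the nearest arrays of these groups were almost tied, at 9.622 and 9.617. The ligand Npnt, nephronectin, which podocytes make, averaged 10.29 ± 0.25, 10.53 ± 0.35 and 10.65 ± 0.31, with -0.10 and 0.06 between Tln1 vehicle and control in the sets. Fibronectin, Fn1, was singled out after its values were seen. It stood at 6.05, 5.63 and 5.57 in Tln1 VPA, at 4.88, 4.50 and 5.29 in Tln1 vehicle, and at 5.18 and 4.76 in control arrays. Tln1 VPA exceeded Tln1 vehicle for Fn1 by 0.86 (SE 0.24), with 1.15 and 0.27 in the sets.

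Of 13 further mesangial genes, 11 were measured. In Tln1 vehicle against control, 8 of these had a difference above 0, beside 12339 of all 22180, and 3 had one below 0. Their median difference was 0.08, with a range from -0.17 to 0.65. Gata3, a transcription factor of mesangial cells, averaged 7.75 ± 0.08 in Tln1 VPA, 7.81 ± 0.20 in Tln1 vehicle and 7.58 ± 0.35 in control arrays, with 0.37 and 0.22 between Tln1 vehicle and control in the sets. Ren1 had no probe set of its own. The groups of this comparison did not overlap for 3 of the 11, Ptn, Art3 and Igfbp5, all higher in Tln1 vehicle, against 4.78% of all genes higher and 3.59% lower, and these were named after their values were seen. Ptn, which encodes the growth factor pleiotrophin, stood at 5.62, 5.58 and 4.80 in Tln1 VPA, at 6.06, 5.94 and 5.72 in Tln1 vehicle, and at 5.39 and 5.13 in control arrays. Its difference between Tln1 vehicle and control was 0.65 (SE 0.26), with 0.61 and 0.59 in the sets. Igfbp5, a binding protein of insulin-like growth factors, averaged 10.79 ± 0.16 in Tln1 VPA, 11.18 ± 0.15 in Tln1 vehicle and 10.67 ± 0.37 in control arrays, with 0.26 and 0.77 between Tln1 vehicle and control in the sets. Art3 had low values, at 4.06 ± 0.23, 4.38 ± 0.13 and 4.18 ± 0.08 in the same order, with 0.21 and 0.26 in the sets, and its nearest Tln1 vehicle and control arrays were at 4.25 and 4.24.

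Of 14 further contractile genes, 11 had a difference above 0 in Tln1 vehicle against control, beside 12339 of all 22180. Their median difference was 0.22. Mylk, the kinase that activates smooth muscle myosin, averaged 7.49 ± 0.19 in Tln1 VPA, 7.85 ± 0.04 in Tln1 vehicle and 7.49 ± 0.16 in control arrays. All 3 Tln1 vehicle arrays of Mylk lay above all others, with 0.45 and 0.30 above control in the sets. Between Tln1 vehicle and control, 2 of the 14 had no overlap, both higher, beside 4.78% of all genes higher and 3.59% lower. Myl9, the regulatory light chain that this kinase acts on, averaged 7.64 ± 0.24, 8.08 ± 0.13 and 7.65 ± 0.51. Its difference between Tln1 vehicle and control was -0.01 and 0.95 in the sets. Tpm2, a tropomyosin, averaged 4.79 ± 0.07, 4.87 ± 0.53 and 4.62 ± 0.57, and Lmod1, which nucleates actin filaments, 4.60 ± 0.19, 4.60 ± 0.19 and 4.65 ± 0.04. Between Tln1 vehicle and control, Tpm2 differed by -0.45 and 1.25 in the sets and Lmod1 by -0.19 and 0.19. The transcription factor Srf averaged 7.20 ± 0.20 in Tln1 VPA, 7.02 ± 0.12 in Tln1 vehicle and 7.26 ± 0.03 in control arrays. All 3 Tln1 vehicle arrays of Srf lay below both control arrays, as for 3.59% of all genes, with differences of -0.28 and -0.13 in the sets. Its coactivators Myocd, at 3.83 ± 0.23, 3.86 ± 0.25 and 4.04 ± 0.08, and Mrtfa, at 6.33 ± 0.18, 6.29 ± 0.21 and 6.27 ± 0.44, had differences between Tln1 vehicle and control of -0.24 and 0.00 (Myocd) and of 0.21 and -0.05 (Mrtfa) in the sets.

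Of 8 further pericyte genes, 6 had a difference below 0 in Tln1 vehicle against control, beside 9841 of all 22180. Their median difference was -0.06. The proteoglycan gene Cspg4, which marks pericytes, averaged 6.43 ± 0.33 in Tln1 VPA, 6.45 ± 0.14 in Tln1 vehicle and 6.56 ± 0.27 in control arrays. The receptor gene Notch3 averaged 5.74 ± 0.15, 5.90 ± 0.07 and 5.96 ± 0.20. Between Tln1 vehicle and control, Cspg4 differed by -0.24 and -0.06 in the sets and Notch3 by -0.20 and 0.09.

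Of the 7 further secreted Wnt antagonists, 4 had a difference above 0 and 3 below 0 in Tln1 vehicle against control, with a median of 0.04 and a range from -0.58 to 1.62 (Frzb). Sfrp1 averaged 9.49 ± 0.61 in Tln1 VPA, 9.35 ± 0.68 in Tln1 vehicle and 9.72 ± 0.21 in control arrays, with -0.89 and 0.51 between Tln1 vehicle and control in the sets. Frzb stood at 5.73, 6.30 and 4.68 in Tln1 VPA, at 6.34, 7.35 and 4.84 in Tln1 vehicle, and at 4.06 and 5.06 in control arrays. It was thus 2.79 higher in Tln1 vehicle than in control within the first set, with a difference of -0.23 in the second. Dkk2, named after its values were seen, stood at 7.01, 6.88 and 6.65 in Tln1 VPA, at 7.71, 7.22 and 7.99 in Tln1 vehicle, and at 6.85 and 6.63 in control arrays. All 3 Tln1 vehicle arrays of Dkk2 lay above all others, with differences from control of 0.62 and 1.36 in the sets. It was the 1 of the 7 without overlap between Tln1 vehicle and control, beside 4.78% of all genes higher and 3.59% lower.

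Likeness to the mesangial mean was measured by Pearson's r over the 8 arrays after subtracting the mean of each array set, among genes above the median gene mean, and is given as a description. The 5 most alike were Borcs7 (r = 0.949), Prkca (0.946), Vapa (0.938), Fgf1 (0.935) and Gm20385 (0.930). Without subtracting the set means, their r was 0.725, 0.305, 0.683, 0.695 and 0.910. For the contractile mean the 5 most alike were Col11a2 (r = 0.989), Garre1 (0.983), Gnb4 (0.972), Rhog (0.971) and Nr4a1 (0.965), and 0.032, 0.943, 0.754, 0.139 and 0.804 without subtraction. The arrays compared share their sets and groups.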

How the data were processed

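Values deposited by the authors are on a log2 scale. RMA and limma are the tools listed per the submitters' processing notes, with no version, and no genome build is given in the sources used here. The 41345 probe sets had values between 1.49 and 13.9, not centred per gene, with array medians of 4.14 to 4.29. No scanner values were used, and the number of arrays limits the precision. The platform annotation gave 1 symbol for 23521 probe sets, several for 1814 and none for 16010. Entrez identifiers matched the gene table for 23328 and changed 0 symbols.

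From these values, lmFit and eBayes of limma 3.58.1 in R 4.3.3 were run with group as the only term, two-sided, on 22180 genes, with Benjamini-Hochberg adjustment over all of them and calls at an adjusted p below 0.05. The fit was run on simulated arrays with independent noise and planted differences, to check that its mean estimates recovered them. That run was no check of the p values on these data. Array sets came from average-linkage clustering on 1 minus r. The 10 genes and the lists were chosen with earlier results of these data known. Named were the 10 genes, a fixed choice from the related lists whatever their values, and the 5 most alike by r. Exceptions are marked in the text. Same-numbered Tln1 VPA and Tln1 vehicle arrays deviated together (r = 0.570, 0.609 and 0.787), so they were treated as pairs in an alternative fit, although the labels state no pairing and other pairs of the first set gave 0.510 and 0.515. Same-numbered Tln1 vehicle and control arrays gave 0.609 and -0.591, so their numbers gave no sign of pairing. The replicate block was nevertheless run as an alternative fit for both comparisons with control too. Figures used Python 3.11.15 and matplotlib 3.10.9.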

Additional observations from a re-analysis of the deposited data

How the results depend on the processing

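Each result was recomputed with other probe set rules, a filter on low genes (all 10 genes stayed in), centring, quantile normalisation, other variance models, array weights, only the groups compared, the array set as a block, each array set alone, a replicate block and each array left out. A Y-linked covariate was added after the data had been seen. With 3 or fewer arrays per group, small differences cannot be resolved.

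The count of called genes was 0 in all 3 comparisons and stayed 0 except in the 3 cases given next. The replicate block, on arrays 1 and 2 of each group alone, called 52 genes in Tln1 vehicle against control and 117 in Tln1 VPA against control. There it crosses the array sets, since control 2 is of the second set. In it Itga8 (1.30, adjusted p = 0.0485) and Sfrp2 (1.30, adjusted p = 0.0465) passed for Tln1 vehicle against control. In Tln1 VPA against Tln1 vehicle the replicate block changed no call. The Y-linked covariate called 21 genes in Tln1 VPA against control, none of the 10 among them. Itga8, Pdgfrb and Des kept a difference above 0 in Tln1 vehicle against control under all 18 alternatives (0.92 to 1.44, 0.54 to 0.98 and 0.81 to 1.35), as did Sfrp2 (0.35 to 1.32). Itga8 stayed below 0 in Tln1 VPA against Tln1 vehicle under all 19 (-0.98 to -0.64). So did Sfrp2 (-1.20 to -0.42), Pdgfrb (-0.62 to -0.008), Acta2 (-0.93 to -0.0096), Myh11 (-0.41 to -0.0123) and Cnn1 (-0.65 to -0.13).

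The contractile mean moved with the array set, to 0.0049 and 0.98 in the first and second set for Tln1 vehicle against control, and to -0.0612 and 0.65 for Tln1 VPA against control. For Tln1 vehicle against control, the sign turned in the first set for Acta2 (-0.30), Tagln (-0.21), Myh11 (-0.32) and Cnn1 (-0.37), and in the second set for Pdgfra (-0.13) and Rgs5 (0.98). It also turned for Myh11 with centring (-0.0116), array weights (-0.18) and the replicate block (-0.20), for Cnn1 with array weights (-0.0779) and the replicate block (-0.068), for Rgs5 with the set block (0.0327) and the Y-linked covariate (0.47), and for Pdgfra with that covariate (-0.093). For Tln1 VPA against Tln1 vehicle it turned in the second set for Des (0.39), Tagln (-0.66) and Pdgfra (0.0003), and for Pdgfra with the covariate (0.12). For Tln1 VPA against control it turned for Sfrp2 with the mean of probe sets (-0.0737), the set block (-0.017), the second set (-0.0655) and the covariate (-0.22). It turned there for Acta2 with centring (-0.0261), array weights (-0.0978), the first set (-0.41) and the replicate block (-0.0821). In the second set it turned for Myh11 (0.27), Cnn1 (0.61), Pdgfra (-0.13) and Rgs5 (0.33), and with the covariate for Rgs5 (0.0495). Leaving out 1 array gave -0.20 to 0.14 for Myh11, -0.21 to 0.40 for Cnn1 and -0.47 to 0.18 for Rgs5 in Tln1 vehicle against control. It gave -0.17 to 0.18 for Des, -0.30 to 0.22 for Pdgfra and -0.47 to 0.19 for Rgs5 in Tln1 VPA against Tln1 vehicle. In Tln1 VPA against control it gave -0.0831 to 0.28 for Sfrp2, -0.31 to 0.35 for Acta2 and -0.57 to 0.0381 for Cnn1. The cause of these turns was not tested.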
